A study of Mus musculus with 2 samples.

Results

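Pkm, the mouse gene for the muscle-type pyruvate kinase (older symbol Pkm2), was examined for its choice between 2 mutually exclusive exons in N2A cells, a mouse neuroblastoma line. Of the 2 libraries, 1 was made with a control shRNA and the other with a Ptbp1 shRNA, each from cells collected 3 days after plasmid transfection. The labels name no other difference between the groups, and with 1 library per group no difference has a replicate check. All exon trios in the span of the gene on its strand were taken, which gave 16 of the 228333 trios in the deposited splicing tables, together with every Cufflinks transcript of the gene, 4 for the control and 5 for the knockdown. On mm9 the gene spans chr9:59504383-59527182 on the plus strand and has 12 distinct exons in GENCODE, with 2 annotated transcripts of 11 exons each.

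Pyruvate kinase makes pyruvate and ATP in the last step of glycolysis. A transcript of Pkm carries either exon 9, giving the M1 enzyme of muscle and mature neurons, or exon 10, giving the M2 enzyme of embryonic and proliferating cells, whose activity is controlled by metabolites. PTBP1 binds pyrimidine-rich RNA and, with hnRNP A1 and hnRNP A2/B1, is known to repress exon 9. Neurons switch from PTBP1 to its relative PTBP2 as they mature.

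The exons that the choice turns on are shown next, since they decide which enzyme is made. Both are internal coding exons of 167 nt, exon 9 at chr9:59522836-59523002 and exon 10 at chr9:59523375-59523541, 372 nt apart. They are given in the sense direction of the mm9 assembly, with capitals at the bases where they differ from each other.

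Exon 9: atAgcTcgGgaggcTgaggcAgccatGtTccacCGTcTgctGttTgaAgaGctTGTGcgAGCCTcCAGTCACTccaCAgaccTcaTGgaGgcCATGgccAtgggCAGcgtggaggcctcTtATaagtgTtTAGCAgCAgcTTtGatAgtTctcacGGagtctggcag

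Exon 10: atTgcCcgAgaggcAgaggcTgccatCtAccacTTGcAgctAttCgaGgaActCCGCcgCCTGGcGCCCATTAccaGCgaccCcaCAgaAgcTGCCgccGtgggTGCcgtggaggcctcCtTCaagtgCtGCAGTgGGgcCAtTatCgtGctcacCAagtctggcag

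The exons were identical at 103 of 167 bases (61.7%). Of their 55 whole codons, 42 differed and 22 coded for another residue. In the first 46 bases, the only stretch of exon 9 in the SpliceTrap exon database, 13 bases differed. The longest run shared by both exons at the same position was 12 bases, against reads of 100 bases.

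The intron sequence just before each exon is shown because it holds the pyrimidines near the 3' splice site that PTBP1 is known to bind. Each is 250 nt long, in the sense direction, with capitals for unbroken runs of at least 8 C or T. The first lies at chr9:59522586-59522835 and the second at chr9:59523125-59523374.

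Upstream of exon 9: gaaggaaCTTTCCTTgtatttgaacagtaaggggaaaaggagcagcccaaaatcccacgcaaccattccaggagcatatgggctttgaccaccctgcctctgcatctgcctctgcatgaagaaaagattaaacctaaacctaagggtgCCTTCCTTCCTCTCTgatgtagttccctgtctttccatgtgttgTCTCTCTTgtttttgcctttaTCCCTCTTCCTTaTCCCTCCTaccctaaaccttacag

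Upstream of exon 10: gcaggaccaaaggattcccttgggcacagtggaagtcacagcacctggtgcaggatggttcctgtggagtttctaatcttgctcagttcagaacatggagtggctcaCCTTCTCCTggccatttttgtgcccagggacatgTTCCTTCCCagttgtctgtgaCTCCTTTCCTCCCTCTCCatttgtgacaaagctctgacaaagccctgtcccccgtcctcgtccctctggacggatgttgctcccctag

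The window before exon 9 had 5 such runs and the window before exon 10 had 3. The longest run was 15 nt before exon 9 and 18 nt before exon 10. C and T together made up 59.6% and 59.2% of the bases. Triplets made of C and T alone were 31.9% of the triplets before exon 9 and 29.8% before exon 10. These were at percentiles 97.4 and 96.0 of the windows before 180300 distinct middle exons of the files, whose median was 18.1%. In the last 100 nt the share was 53.1% before exon 9 (percentile 99.4) and 39.8% before exon 10 (percentile 96.5), and in the last 50 nt it was 54.2% (percentile 97.2) and 39.6% (percentile 82.7). Both introns were thus rich in pyrimidine triplets, with the larger value before exon 9 at each width. In the 100 nt after each exon the share was 19.4%, at percentile 63.4 for both. The motif CTCTCT began at 2 positions in the sense direction before exon 9 and at 0 before exon 10, and it was present in 17.3% of all windows of this length. TCTT began at 3 positions before exon 9 and at 1 before exon 10, against 84.1% of windows with at least 1. On the opposite strand CTCTCT had 0 matches in both windows, and TCTT had 2 before exon 9 and 0 before exon 10. CTCTCT and TCTT can share bases where they lie side by side.

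**Figure D1:**
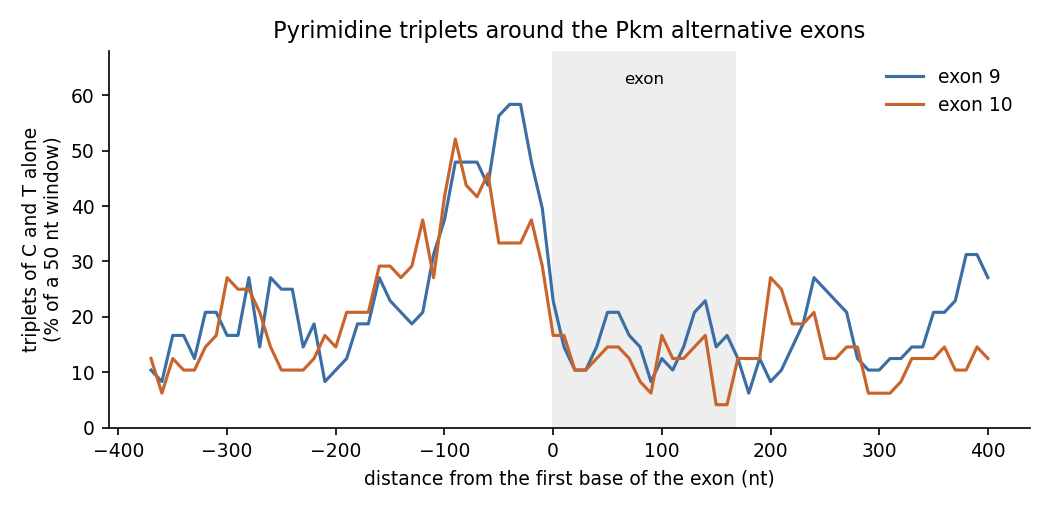
Percent of triplets made of C and T alone in 50 nt windows moved by 10 nt (y axis) against the distance of the window centre from the first base of exon 9 (blue) or exon 10 (orange); the grey band is the exon. The highest window was 58.3% for exon 9 and 52.1% for exon 10, both upstream of the exon.

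The shRNA target was checked first. Ptbp1 had a mean depth of 2710 reads per base with the control shRNA and 832 with the Ptbp1 shRNA, and its FPKM ratio of knockdown to control was 0.327. Ptbp2, the neuronal relative, had 685 and 1200 reads per base and an FPKM ratio of 1.91. Depth is not scaled to library size, and how the deposited FPKM were scaled was not checked. With depth divided by the summed depth of all genes matched to a symbol, the log2 ratios were -1.36 for Ptbp1 and 1.15 for Ptbp2. The libraries held 74382387 and 58295142 reads over 406367 distinct junctions, a ratio of 0.784. Of the cell type markers, Hand2, a transcription factor of the sympathetic lineage, had 3254 and 2910 reads per base, while the neurofilament genes Nefl and Nefm were under 1 in both libraries. Markers of glia, blood, fibroblasts and muscle reached at most 10.3 reads per base (Mbp), and Aqp4 and Myod1 were listed at 0 in both. Of the 10 neuroblastoma markers reported, 6 were at least 1.5-fold higher by FPKM in the knockdown library (2 of them the genes under 1 read per base) and 1, Mycn, was at least 1.5-fold lower, beside 22.1% of 14282 genes higher and 13.0% lower. After division of FPKM by the library medians, with a pseudocount of 1e-06 chosen after seeing the data, 6 stayed higher, beside 38.9% of all genes. The call for Mycn was lost (log2 ratio -0.29), beside 6.01% of all genes lower. With the planned pseudocount of 1, 4 were higher, beside 18.7% of all genes, and Nefl and Nefm no longer passed. The higher markers included Dbh, an enzyme of noradrenaline synthesis, with 317 and 1047 reads per base. Of 7 tested markers of other cell types, all at low depth, 3 were also at least 1.5-fold higher by FPKM and 0 lower. Under median scaling 4 of these were higher with the pseudocount of 1e-06 and 0 with the pseudocount of 1. The part of these marker differences in the exon choice was not tested.

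Exon 9 was joined more often in the knockdown library and exon 10 less often. The junction of exons 8 and 9 had 1578 reads with the control shRNA and 2016 with the Ptbp1 shRNA, a ratio of 1.28 (95% interval 1.20 to 1.36) although the knockdown library was smaller. The junction of exons 8 and 10 had 8075 and 3833 reads, a ratio of 0.475 (0.457 to 0.493). The junction of exons 10 and 11 had 9792 and 5196 reads, a ratio of 0.531 (0.513 to 0.549). All intervals on reads cover counting error only.

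Expressed as a share of the reads leaving exon 8 for either exon, exon 9 took 16.3% (95% Wilson interval 15.6 to 17.1) with the control shRNA and 34.5% (33.3 to 35.7) with the Ptbp1 shRNA. The share rose by 18.1 points (Newcombe interval 16.7 to 19.5), with an odds ratio of 2.69 and a two-sided Fisher's exact p of 1.76e-144 that compares these libraries and not the conditions. In RNA from bulk cells, a shift within each cell and a full switch in some of the cells cannot be told apart. The level of this share was tied to the exon database. No trio had exon 9 as its middle exon, and exon 9 occurred only as the third exon of 1 trio, cut to its first 46 nt, so the junction of exons 9 and 11 was not analysed here. A read crossing from exon 8 could be placed on a shorter stretch of exon 9 than of exon 10, in both libraries alike.

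Ratios within a trio avoid a comparison between the exons' own counts. In the trio of exons 7, 8 and 9, reads from 8 to 9 per read from 7 to 8 were 0.107 in control cells and 0.190 after knockdown, a change of 1.77 times (1.65 to 1.90). In the trio of exons 7, 8 and 10, reads from 8 to 10 per read from 7 to 8 were 0.531 and 0.352, a change of 0.663 times (0.633 to 0.694). Reads from 10 to 11 per read from 11 to 12, on the other side of exon 10, were 0.686 and 0.488, a change of 0.712 times (0.683 to 0.742). Pairs of junctions away from the choice moved less, with a change of 1.05 times (1.01 to 1.08) for 7 to 8 over 6 to 7 and 1.00 times (0.967 to 1.04) for 5 to 6 over 4 to 5. Thus the gain of exon 9 and the loss of exon 10 were each seen against a junction of the same trio.

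If each junction is captured at a constant rate in both libraries and the 2 exons together account for all transcripts, these changes fix the shares themselves. Solved from the junctions 8 to 9 and 8 to 10, the exon 9 share was 30.4% (26.4 to 34.3) for the control shRNA and 53.8% (49.7 to 57.9) for the Ptbp1 shRNA, a difference of 23.5 points (21.6 to 25.3). These intervals are approximate. They treat the changes of 8 to 9 and 8 to 10 as independent, although both were divided by nearly the same reads from 7 to 8. They also do not cover a change of capture between the libraries. Away from the choice, 7 to 8 over 6 to 7 changed 1.05 times (1.01 to 1.08), so a constant rate may not hold exactly. With 10 to 11 in place of 8 to 10, the shares were 27.2% and 48.2%, a difference of 21.0 points (19.2 to 22.8). The first solution corresponds to a capture of the junction 8 to 9 at 0.462 of that of 8 to 10. This estimate was added after the counts were seen.

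**Figure D2:**
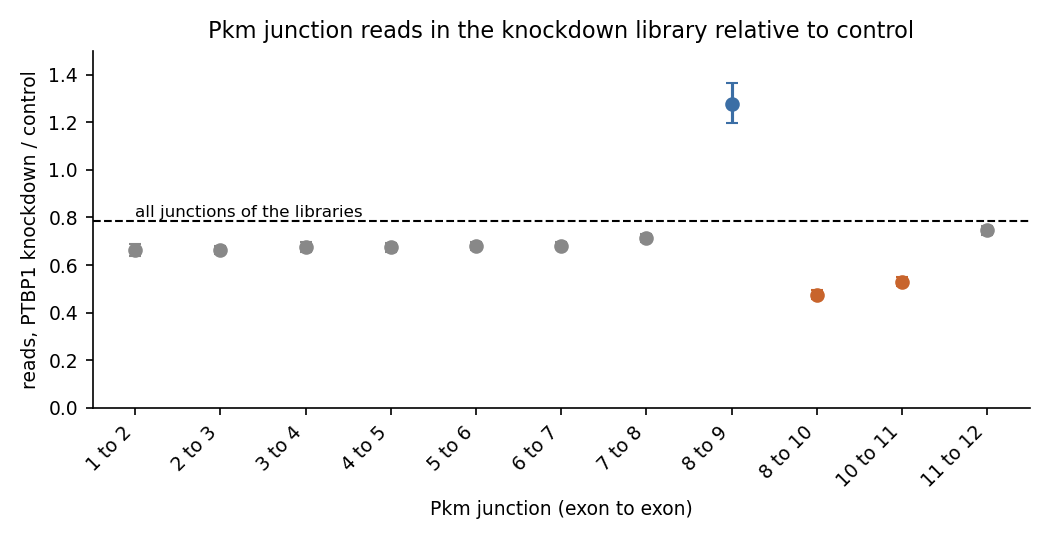
Ratio of reads in the knockdown library to reads in the control library (y axis) for each Pkm junction with at least 1000 control reads (x axis), with 95% counting intervals; blue is the junction into exon 9, orange those of exon 10, grey the others, and the dashed line is the ratio of all junction reads, 0.784. The junction 8 to 9 lies above the line at 1.28, those of exon 10 lie lowest, at 0.475 and 0.531, and the 8 others lie between 0.663 and 0.746.

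Read density over the exons was set beside the junction reads. The 46 nt of exon 9 had 3430 reads per 100 nt with the control shRNA and 4387 with the Ptbp1 shRNA, a ratio of 1.28. This density holds the same reads as the junctions into exon 9, so it is not a further measure. Exon 8 in the same trio had 13809 and 10376, a ratio of 0.751. Exon 10 had 12962 and 6714 reads per 100 nt, a ratio of 0.518, and its neighbour exon 11 had 12166 and 8117, a ratio of 0.667.

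Joining of exon 8 directly to exon 11, without either exon, was rare. It had 53 reads with the control shRNA and 42 with the Ptbp1 shRNA, 0.546% and 0.713% as many as the reads from exon 8 to exons 9 and 10. The difference was 0.17 points (-0.08 to 0.45; two-sided Fisher's exact p = 0.204, between the libraries). Skipping of exon 8 into exon 10 had 5 and 23 reads, a ratio of 4.60 (1.75 to 12.1), and skipping of exon 8 into exon 9 had 0 and 2 reads, where a count of 0 allows up to 3.

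The percent spliced in (PSI), which sets inclusion of a middle exon against its skipping, did not register the exchange as a large change. For exon 10 between exons 8 and 11, PSI was 98.2 with the control shRNA and 94.7 with the Ptbp1 shRNA, a difference of -3.5 points after the SpliceTrap correction. Exon 8 before exon 9 had 97.8 and 99.8. None of the 16 Pkm trios moved by 5 points or more, against 5.39% of the 145628 trios of any class with at least 20 reads in both libraries and 2.97% of the 131076 of the constitutive class, to which the exon 10 trio belongs. Of the latter, 2.20% fell at least as far as exon 10. The 16 trios had between 8972 and 130911 reads. The 12 constitutive trios had PSI of at least 94.7 in both libraries, and 10 of them were at 99 or more in both. The 3 alternative donors were at 0.1 in both, and the alternative acceptor before exon 2 was at 7.4 and 6.1.

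Cufflinks, which assigns reads to whole transcripts, gave a larger difference. The control library held an assembled transcript with exon 9 at 1750 reads per base and the RefSeq transcript with exon 10 at 3552. The knockdown library held a transcript of 11 exons with exon 9 at 1503, a second transcript with exon 9 of only 9 exons at 1604, and the RefSeq exon 10 transcript at 969. The second transcript began with a first exon of 14 nt in the body of the gene. By Cufflinks, exon 10 transcripts were thus the more abundant in the control library and exon 9 transcripts in the knockdown library. The junction measures did not all show this majority. In the knockdown library exon 9 had 34.5% of the reads from exon 8, and its solved shares were 53.8% and 48.2%. Exon 9 transcripts made up 33.0% of the spliced depth in the control library (31.7 to 34.4 from the deposited FPKM bounds) and 76.2% (74.3 to 78.0) in the knockdown library, a difference of 43.2 points. Over transcripts of 11 exons alone the shares were 33.0% and 60.8%, a difference of 27.8 points. Each library also had 2 assembled transcripts with neither exon as a spliced exon. In the first, an exon of 1938 nt (control) and 1941 nt (knockdown) ran from the intron after exon 8 through the end of exon 10, at 406 and 384 reads per base. In the second, an exon of 2414 nt and 2363 nt ran from the intron after exon 10 through exon 11, at 413 and 503 reads per base.

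**Figure D3:**
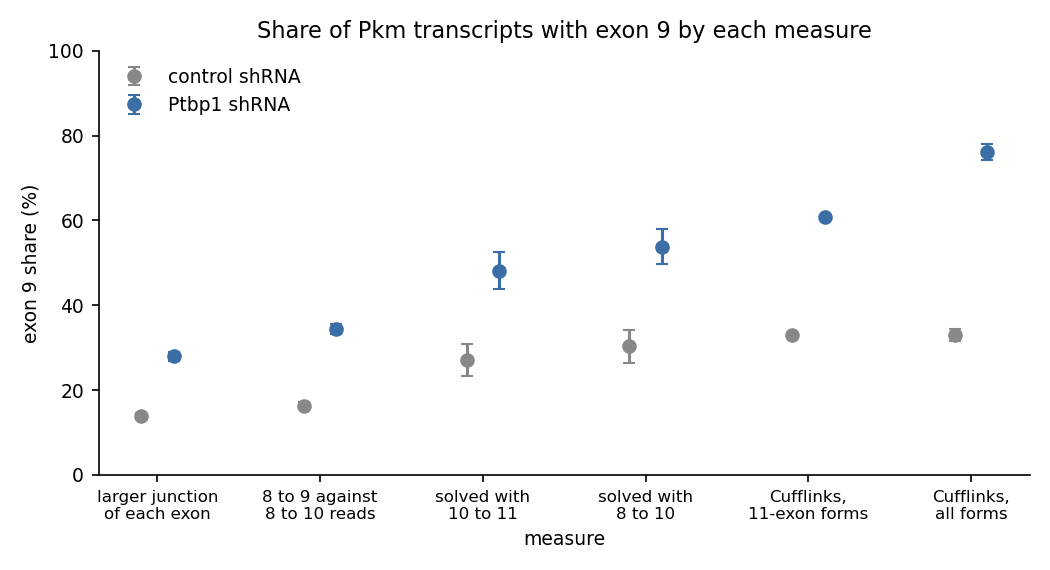
Share of Pkm transcripts or reads with exon 9 in percent (y axis) by 6 measures (x axis) in the control shRNA library (grey) and the Ptbp1 shRNA library (blue); bars are 95% counting intervals for junction measures and deposited FPKM bounds for all Cufflinks forms, and the 11-exon Cufflinks forms have no bar. The share was higher in the knockdown library by each measure, from 28.0% against 13.9% with the larger junction of each exon to 76.2% against 33.0% with all Cufflinks forms.

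The exon 9 change was set beside other genes where the files hold the same kind of choice, an exon joined to either of 2 non-overlapping next exons. Of 4624 such pairs with at least 20 reads in both libraries, 33.8% moved by 5 points or more in either direction, and the share of the nearer next exon rose by that much in 18.3%. With the smallest deposited counts, on which these pairs were computed, Pkm rose by 18.3 points, and 205 pairs (4.43%) rose as much or more. Shallow pairs spread more through counting error. In simulated reads at these depths, with the control shares kept, 17.8% of 4424 unshifted pairs moved by 5 points or more. Of the 271 unshifted pairs with at least 1000 reads, 0 did. Among the 281 pairs with at least 1000 reads in both libraries, a limit chosen after the counts were seen, 50 (17.8%) moved by 5 points or more, and 5 rose by as much as Pkm or more, Pkm among them. The others lay in Lass5 (6.12% to 56.9%), Cdc42 (8.97% to 43.6%), H13 (5.55% to 30.6%) and Clta (10.1% to 33.5%), named after their values were seen. A pair can hold a last exon or share a junction with another pair, so pairs are not independent.

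**Figure D4:**
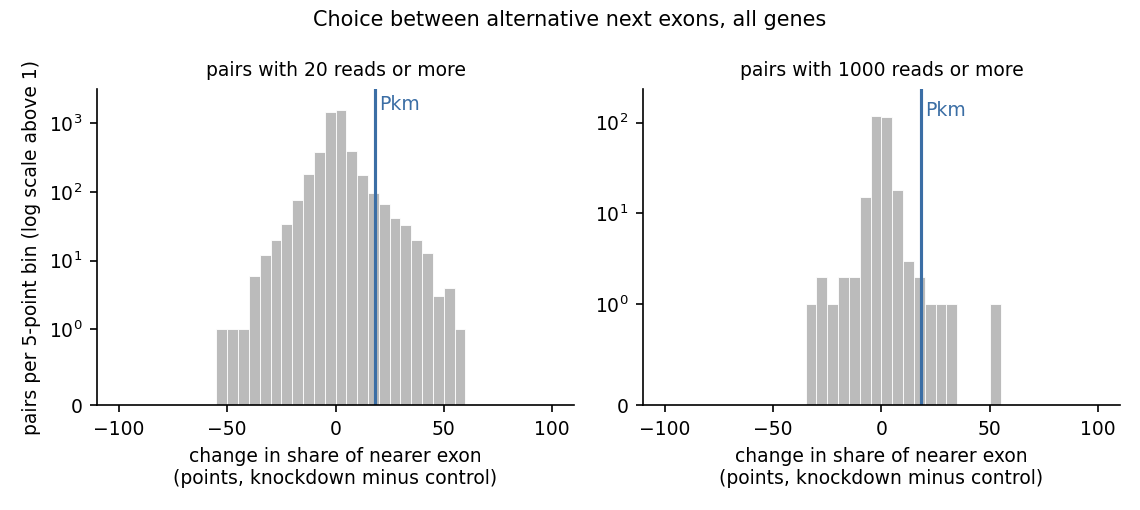
Number of pairs of alternative next exons (y axis, log scale above 1) by the change in the share of the nearer exon in points, knockdown minus control (x axis, bins of 5 points), for 4624 pairs with at least 20 reads (left) and 281 with at least 1000 (right); the blue line is Pkm at 18.3. Pkm lies in the upper tail, with 205 pairs on the left and 5 on the right at or above it, Pkm included.

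Pkm was not among the 260 pairs of exons between the same outer exons, since exon 9 is no middle exon in the database. Of these, 41.9% moved by 5 points or more. The largest rises of the upstream exon were in Cacna1c (20.7% to 75.0%, a difference of 54.3 points with an interval of 39.8 to 65.3), Acsl6 (52.2% to 84.4%) and Fmnl2 (10.2% to 40.9%), and the largest falls in Pbrm1 (65.4% to 25.5%), Atp8a1 (56.2% to 20.9%) and Cacnb1 (57.1% to 22.7%).

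Pkm was among the most abundant genes in both libraries. Its ratio of knockdown to control was somewhat below that of the median gene, and the sign of this ratio depended on the scaling. The gene had 6121 reads per base over its transcripts with the control shRNA and 4963 with the Ptbp1 shRNA, and by FPKM it ranked 63 and 53 of 20024 genes with a locus of their own. Its log2 FPKM ratio was -0.21 (-0.27 to -0.15 from the deposited bounds), a ratio of 0.864, but 0.25 after division by each library's median FPKM (median scaling, with a pseudocount of 1e-06, an alternative chosen after seeing the data). That step adds 0.46 to the log2 ratio of every gene and moved the median of all 14282 genes from -0.02 to 0.44. Pkm lay below that median with a difference of -0.19, which such a step cannot change. Its unscaled ratio was between the quartiles of the genes above 0 in both libraries, -0.32 and 0.35. On the 8 junctions outside the choice it had 106430 and 73394 reads, a log2 ratio of -0.18 once scaled to all junction reads. Per-junction ratios of these 8 ranged from 0.663 near the 5' end to 0.746 for exons 11 to 12, so the ratio was not the same along the transcript. Near-identical stretches elsewhere in mm9 (at least 90% identity over at least 80% of the exon) numbered 6 for exon 8, 7 for exon 10, 6 for exon 11 and 0 for exon 9. Reads of the first 3 of these exons could therefore be shared with other loci, and the part of this in the values was not tested.

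Among the other genes of glycolysis and pyruvate use, none passed a 1.5-fold rise and 4 of 21 tested were at least 1.5-fold lower in the knockdown library. These were the glucose transporter gene Slc2a1 (log2 FPKM ratio -0.75), hexokinase Hk2 (-0.61), glucose-6-phosphate isomerase Gpi1 (-0.65) and the lactate exporter Slc16a3 (-0.81). The background was 35.1% of 14282 genes past 1.5-fold in either direction, 13.0% lower, or 9.32% lower among the 11113 genes with at least 1 read per base in both libraries. The list's median was -0.38, beside -0.02 for the 14282 genes and -0.08 for the 11113, and 17 of the 21 had a ratio below 0. The share of all genes below 0 was not counted, here or under median scaling, so the medians are the only background for such counts. Under median scaling the list's median was 0.08 beside 0.44 for all genes, and 6 of the 21 had a ratio below 0. Slc2a1 (-0.29), Hk2 (-0.15), Gpi1 (-0.20) and Slc16a3 (-0.35) kept their sign but not the 1.5-fold. By that scaling 0 were lower and 3 passed as higher, namely Hk1 (0.60), Pfkm (0.77) and Pgk1 (0.61), beside 6.01% of all genes lower and 38.9% higher. Of the 25 listed genes, Eno1 and Mpc1 shared a locus with another gene and were not tested, and Ldhb and Pklr were listed at 0 in both libraries. The shared loci had log2 ratios of -1.31 (Eno1) and 0.27 (Mpc1), and of -0.85 and 0.73 under median scaling. Pklr encodes the pyruvate kinase of liver and red cells. The listed genes closest to Pkm in log2 ratio over the 2 libraries were the neuronal enolase Eno2 (-0.17), the phosphoglycerate mutase Pgam1 (-0.31) and the phosphofructokinase Pfkp (-0.32).

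Regulators known to act on this exon pair or on Pkm transcription were read from the same table. Of 9 tested, Ptbp2 was at least 1.5-fold higher and Ptbp1, Ptbp3, Rbm4 and Mycn at least 1.5-fold lower, beside 22.1% of all genes higher and 13.0% lower. Their log2 FPKM ratios were 0.93 for Ptbp2, -1.61 for Ptbp1, -0.88 for Ptbp3, a further relative of PTBP1, -0.64 for Rbm4, a splicing factor, and -0.74 for Mycn. Under median scaling Ptbp2 (1.39) and Ptbp1 (-1.15) stayed past the threshold and Ptbp3 (-0.42), Rbm4 (-0.18) and Mycn (-0.29) did not. Hnrnpa2b1 and Srsf3, splicing factors with known effects on this choice, had -0.40 and -0.51, and under median scaling 0.06 and -0.05. The transcription factor genes Myc and Hif1a had -0.14 and -0.25, and under median scaling 0.32 and 0.21. Hnrnpa1 shared its locus with near-copies, at -0.16 for the shared locus and 0.30 under median scaling. Ptbp2 and Ptbp3 thus differed between the same libraries as Ptbp1 did, and their part in the exon choice was not tested.

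**Figure D5:**
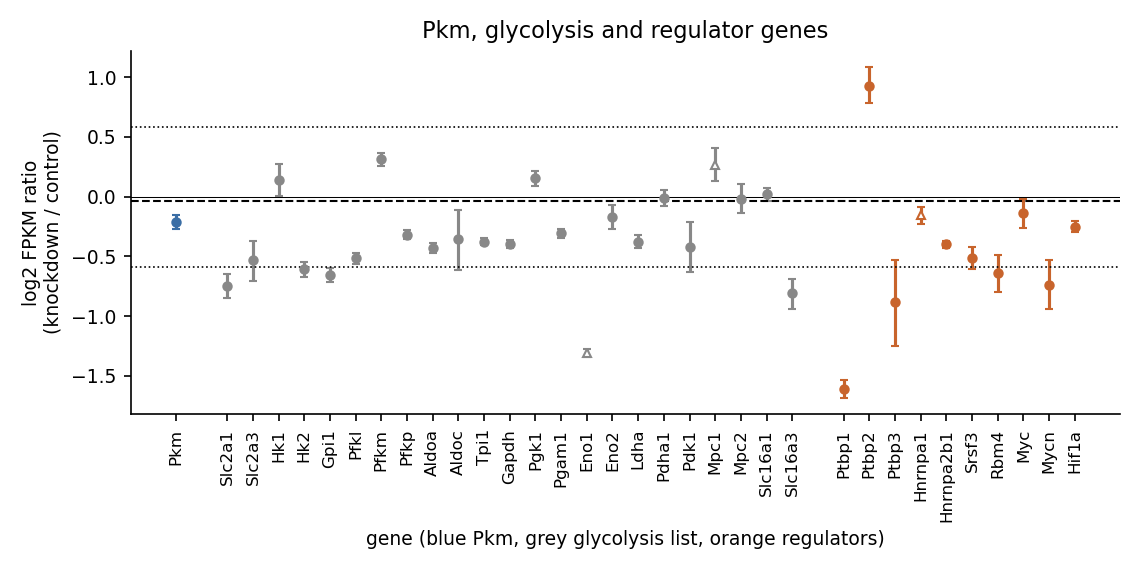
Log2 FPKM ratio of knockdown to control (y axis) with the range from the deposited FPKM bounds for Pkm (blue), glycolysis genes (grey) and regulators (orange); open triangles share a locus with another gene, the dashed line is the median of genes above 0 in both libraries (-0.04) and dotted lines mark 1.5-fold. Pkm lies at -0.21 and Ptbp1 and Ptbp2 at -1.61 and 0.93. Median scaling would raise each gene by 0.46, which turns Pkm positive and leaves 6 of 21 tested glycolysis genes below 0 (share of all genes not counted).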

How the data were processed

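RNA from 1 control shRNA culture and 1 Ptbp1 shRNA culture was sequenced as strand-specific pairs of 100 bases. For each exon trio on mm9, the SpliceTrap output deposited by the authors holds 2 inclusion ratios, each a fraction, 1 of them corrected, the read count of each junction and the coverage per 100 nt. The Cufflinks output deposited by the authors holds FPKM, its bounds and, per isoform, the mean coverage of a base. The submitters' processing notes also name CASAVA and TopHat; versions are not given in the sources used here. The deposited FPKM values lie far above the usual scale, so only ratios were used, and at this scale a pseudocount of 1 and a minimum of 1 had almost no effect.

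Pkm trios were found by the GENCODE span on NCBIM37, the assembly of mm9; 99.3% of 180300 middle exons were preceded by AG. Where trios repeated a junction, the largest count was used. A mean of upstream and downstream junctions had been planned for the exon 9 share; only the upstream junction of exon 9 was in the table, so upstream junctions were used. Intervals are 95% Wilson and Newcombe, tests are two-sided Fisher's exact tests between libraries, and floors and intervals cover counting error only. Trios and pairs needed 20 reads in each library, and 5 points or 1.5-fold were the thresholds. Of RefSeq transcripts in the Cufflinks tables, 26915 of 27601 (control) and 26919 of 27604 (knockdown) matched a symbol. Genes sharing a locus were left out of counts, and 2 cell type markers of the list are not reported here. Genes of the list past 1.5-fold, the 3 closest to Pkm, all regulators, and the 3 largest rises and falls among exon pairs were named. Members and lists were chosen with earlier results of these data known. Python 3.11.15, scipy 1.17.1 and blastn 2.17.0 were used, and the share and pair calculations were tested on simulated data.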

Additional observations from a re-analysis of the deposited data

How the results depend on the processing

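The exon 9 share rose under each measure tried: by 14.1 points with the larger junction of each exon, 18.3 with the smallest deposited counts, 43.2 with Cufflinks coverage, and, added after seeing the data, 23.5 and 21.0 when solved from the junctions 8 to 10 and 10 to 11. The Cufflinks difference was 43.2 points by FPKM too and 27.8 over 11-exon transcripts, an alternative added after seeing the data. The PSI difference of exon 10 was -4.1 points before correction and -0.36 from junction reads. The log2 ratio of Pkm turned to 0.24 after division by library medians (0.25 with a pseudocount of 1e-06, added after seeing the data) and to 0.039 for summed isoform coverage; it was -0.18 on constitutive junctions and -0.21 with a pseudocount of 0.1 or by aligned bases, the last added after seeing the data. The library medians are over the loci with a positive FPKM, out of different numbers of loci, 42813 and 51207. The cause of these differences was not tested.

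Genes past 1.5-fold numbered 5013; 3157 were higher and 1856 lower. After median scaling with the planned pseudocount of 1 they were 2816 (2666 and 150), but that pseudocount, negligible on deposited FPKM, is as large as the median gene after division and shrinks low genes; with 1e-06 they were 6415 (5557 and 858). They were 3190 at 2-fold and, added after seeing the data, 2371 with at least 1 read per base. For the glycolysis list the count of 4 became 0 at 2-fold; after median scaling it was 3, all higher, with either pseudocount. At 10 points, 3950 trios, 66 exon pairs and 786 next-exon pairs passed, against 7853, 109 and 1562 at 5. Pyrimidine triplets before exon 9 were 31.9%, 53.1% and 54.2% over 250, 100 and 50 nt, and 29.8%, 39.8% and 39.6% before exon 10. Of 43 alternatives, 23 were labelled as unchanged and 20 as moved. The rise of 14.1 points was labelled as unchanged without a check, although it lies outside the main interval of 16.7 to 19.5. Counts were compared by size and not direction, so the 3 higher glycolysis genes were labelled as unchanged from the 4 lower. Downstream junctions alone and RefSeq transcripts alone were not run, since the tables used here hold neither the junction 9 to 11 nor a RefSeq transcript with exon 9. No paired analysis was possible because each group had 1 library. With 1 library per group, spread between cultures could not be measured. The depth of Pkm gave narrow counting intervals, and the exon 9 junction was read on 46 nt of the exon alone.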
